A study of Mus musculus with 8 samples.

Results

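The genes described here are 36 genes of endoplasmic reticulum (ER) protein folding and the unfolded protein response, chosen by name as a pathway list and matched to the gene names of the deposited expression table, out of 55487 genes listed there. They fall into 6 groups: 11 chaperones and co-chaperones, 6 enzymes of oxidative folding, 7 genes of ER-associated degradation (ERAD), 4 sensors and factors of the IRE1-XBP1 and ATF6 arms, 5 genes of the PERK-ATF4 arm, and 3 subunits of the translocon and its partner complex. RNA-seq had been run on intestinal epithelial cells from the colon of C57BL/6J mice, with 4 wild-type (WT) libraries and 4 libraries labelled PIM1+/-, that is, heterozygous for PIM1. Pim1 encodes a serine/threonine kinase that acts in growth and survival signalling, and no treatment is named for either genotype. The labels do not state that the 4 libraries of a genotype come from separate animals, so the p-values below measure the spread between these libraries, which may be technical.

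Secreted and membrane proteins enter the ER through the Sec61 channel, fold there with the help of chaperones and disulfide-forming enzymes, and are sent back to the cytosol for destruction by ERAD when folding fails. The sensors IRE1, ATF6 and PERK read the load of unfolded protein in the ER membrane. ATF6 and spliced XBP1 raise chaperone and ERAD genes, while PERK slows translation and favours ATF4, whose targets serve amino acid supply and stress outcome. Goblet cells of the colon, which make large amounts of disulfide-linked mucin, depend heavily on this machinery and carry their own IRE1 isoform, IRE1-beta, encoded by Ern2.

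The short promoter elements known for these factors were searched in the RefSeq promoters (build GRCm38.p6, 250 bases before to 50 after the start). The elements differ between the arms of the response. Of the 36 genes, 30 had a promoter in the table, and Hyou1, Manf, Derl1, Ern2, Atf6 and Sec61a1 had none. The ER stress response element (ERSE), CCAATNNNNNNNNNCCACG, is bound by ATF6 together with the CCAAT-binding factor NF-Y. On either strand it was found in 9 of the 30 genes, namely Hspa5, Hsp90b1, Calr, Canx, Dnajc3, Creld2, Pdia6, Syvn1 and Derl3, against 0.119% of all 32851 promoters and 0.137% of 27025 genes. The ERSE without its last base (called ERSE-like here and added after the data were seen) contains every ERSE match and was found in 13 of 30 genes, adding Pdia3, Pdia4, Herpud1 and Derl2, against 0.365% of all promoters. ERSE-II, ATTGGNCCACG, was found in Dnajb11 and Herpud1 (0.0365% of all promoters). The core of the amino acid response element (AARE), TGATGNAA, which ATF4 binds with C/EBP-family partners, was found in Herpud1, Trib3, Asns and Chac1, against 3.97% of all promoters. The core of the unfolded protein response element, TGACGTGG, was in none of the 30 promoters and in 0.676% of all. A match is a description of letters, not a shown binding site, and a promoter without one lacks only these letters in this window. The genes were chosen by name as genes of this response, so a share above that of all promoters is no independent result.

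The 11 stretches below belong to the genes on which the results turn, with the matches in capitals and each read 5′ to 3′ on the strand of its gene. Where the match is in the opposite orientation, the capitals spell the reverse complement of the element. For Hspa5, Pdia3 and Asns the RefSeq start lies downstream of the gene start in GENCODE M21, so the match falls inside the annotated gene and at most 30 bases are shown.
Hspa5 (chr2:34772020-34772048, plus strand, ERSE): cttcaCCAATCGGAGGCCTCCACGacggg
Hsp90b1 (chr10:86705513-86705676, minus strand, ERSE): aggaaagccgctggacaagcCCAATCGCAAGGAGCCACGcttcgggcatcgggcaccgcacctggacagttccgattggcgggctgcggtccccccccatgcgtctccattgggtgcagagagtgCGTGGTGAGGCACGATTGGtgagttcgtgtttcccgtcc
Calr (chr8:84847055-84847113, minus strand, ERSE): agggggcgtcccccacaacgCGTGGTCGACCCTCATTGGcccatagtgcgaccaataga
Canx (chr11:50325780-50325838, minus strand, ERSE): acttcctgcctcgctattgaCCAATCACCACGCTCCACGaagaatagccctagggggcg
Creld2 (chr15:88819500-88819558, plus strand, ERSE): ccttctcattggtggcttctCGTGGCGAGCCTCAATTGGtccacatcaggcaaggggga
Pdia3 (chr2:121413867-121413896, plus strand, ERSE-like): acgcagCCAATCGGCGGCTGCCACactgcg
Pdia6 (chr12:17266471-17266529, plus strand, ERSE): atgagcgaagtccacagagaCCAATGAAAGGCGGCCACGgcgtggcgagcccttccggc
Syvn1 (chr19:6046512-6046570, plus strand, ERSE): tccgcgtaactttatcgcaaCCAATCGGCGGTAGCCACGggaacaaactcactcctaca
Herpud1 (chr8:94386297-94386428, plus strand, AARE core, ERSE-II, ERSE-like): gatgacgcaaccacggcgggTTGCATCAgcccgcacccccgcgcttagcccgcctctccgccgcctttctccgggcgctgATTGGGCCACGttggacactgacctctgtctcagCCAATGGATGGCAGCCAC
Asns (chr6:7693214-7693243, minus strand, AARE core): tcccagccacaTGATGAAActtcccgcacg
Chac1 (chr2:119351029-119351076, plus strand, AARE core): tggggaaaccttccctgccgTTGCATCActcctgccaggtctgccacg
The ERSE of Hspa5, the gene in which this element is best known, ran from base -65 to base -47 relative to the RefSeq start. Hsp90b1 carried 2 ERSE matches in opposite orientation. Herpud1 was the gene with matches to the ERSE-II, the ERSE-like element and the AARE core together. The plot of match positions shows where they lie in each promoter.

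**Figure D1:**
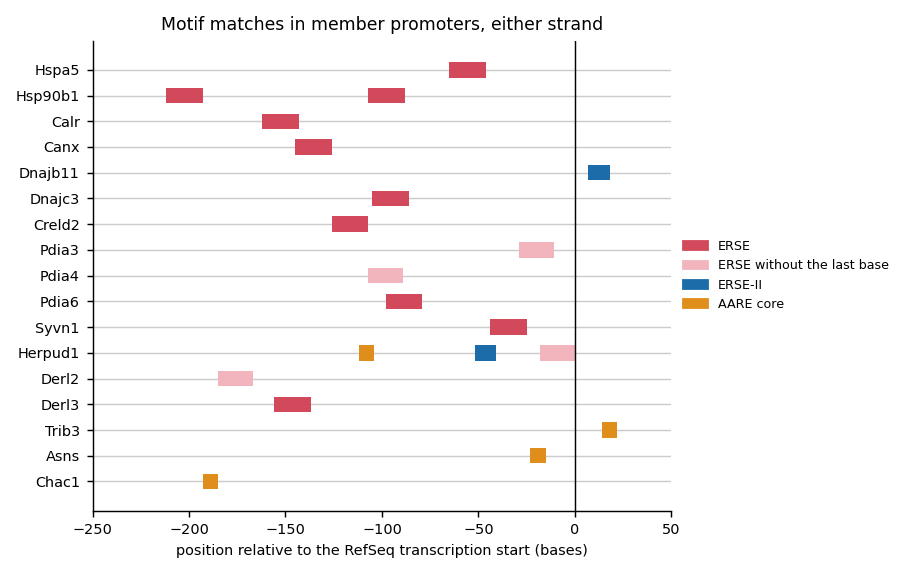
Positions of element matches in the RefSeq promoters of the members with a match. The x axis is the distance in bases from the RefSeq start, each row is a gene and each block a match to 1 of the elements, on either strand. Every ERSE and ERSE-like match lies before the start, and the AARE core is in Herpud1, Trib3, Asns and Chac1.

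Expression was deposited as TPM, a read share corrected for transcript length whose sum is nearly equal in all libraries (990958 to 992187 over the listed genes), so read depth is unknown. The 12 epithelial markers were high in every library, with a summed level of 11554 to 12587 TPM in WT and 13374 to 14364 TPM in PIM1+/-. Of the 12, 7 rose and 2 fell at a limma adjusted p under 0.05, where 8.93% of all tested genes rose and 8.54% fell. The 7 became 4 with upper quartile scaling, 3 without mitochondrial transcripts and 3 without a filter on low values. Pim1 itself stood at 5.72 to 8.83 TPM in WT and 5.64 to 7.97 TPM in PIM1+/- (log2 fold change -0.19, limma adjusted p = 0.411), so its level does not separate the libraries, and the groups are named by their labels. Among the goblet cell markers (15 genes) 6 rose (40%) and 3 fell (20%), against the same 8.93% and 8.54%. The log2 fold changes of these markers ran from -0.51 to 3.91, with a median of 0.27. Their summed level was 18502 to 20848 TPM in WT against 25140 to 38122 TPM in PIM1+/-, highest in PIM1+/- replicate 1. Muc2, the main goblet mucin and the most abundant gene of that list, overlapped between genotypes at 3304.67 to 5520.89 and 4237.82 to 7102.35 TPM. Spink4, the next in abundance, rose (log2 fold change 1.46, limma adjusted p = 0.00207), and the lectin gene Zg16 fell (-0.51, limma adjusted p = 0.0340). T and NK cell markers summed to 12.6 to 26.6 TPM in WT and 46.7 to 111 TPM in PIM1+/-, and myeloid and mast cell markers to 1.94 to 4.98 and 15.5 to 18.8 TPM. No count of their tested genes is given, since 2 of 10 and 2 of 4 passed the filter on low values only through PIM1+/- and others of them largely so. Plasma and B cell markers, from cells rich in ER, summed to 109 to 128 and 128 to 132 TPM. Only 3 of these 13 markers were tested, and none passed the threshold. Without a filter on low values 12 of the 13 had a log2 fold change above 0. In that fit 1 rose (7.69%), against 2.89% of all genes. Fibroblast and muscle markers summed to 2.84 to 4.45 and 2.64 to 4.71 TPM, with Lum listed at 0 in all 8. The part of these marker differences in the results below was not tested, and in bulk RNA fewer cells of a type and less RNA per cell cannot be told apart.

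The comparison asks how the ER folding and stress genes differ between PIM1+/- and WT colon epithelium. In oxidative folding 5 of 6 genes rose in PIM1+/-, in the translocon group 2 of 3 and among the chaperones 2 of 11, and the ATF4 target Asns rose too. None of the 6 tested ERAD genes and 4 sensor genes among the 36 passed the test. Of the 36 genes 34 were tested, and 11 rose (32.4%) and 0 fell at a limma adjusted p under 0.05, where 8.93% of all 12760 tested genes rose and 8.54% fell. The genes that rose were Calr and Creld2 among the chaperones, Pdia3, Pdia4, Pdia5, Pdia6 and P4hb in oxidative folding, Asns and Chac1 in the PERK-ATF4 arm, and Sec61a1 and Sec61b of the translocon. Chac1 passed the filter on low values only through the PIM1+/- libraries and so had to differ. Without it the count is 10 of 33. The log2 fold change (on the log2(TPM + 1) scale, which understates the change of genes near 0) was above 0 for 29 of the 34, with a median of 0.26 against -0.01 over all tested genes. In 16 of the 34 every PIM1+/- library lay above every WT library and in 0 below, against 11.9% and 11.6% of all tested genes. Chac1 is among the 29 and the 16 and is included in the median.

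These counts depended on single libraries and on scaling. The number of the 34 that rose was 5, 13, 5 and 4 without WT replicates 1 to 4 and 6, 9, 9 and 6 without PIM1+/- replicates 1 to 4. The share of all tested genes that rose moved too. It was 5.9%, 7.79%, 6.82% and 5.72% without WT replicates 1 to 4. Without PIM1+/- replicates 1 to 4 it was 6.33%, 7.1%, 6.6% and 7.78%. Of the chaperones, 0 rose without WT replicates 1, 3 or 4, 6 without WT replicate 2 and 1 with any single PIM1+/- library left out. Of the oxidative folding genes 2 rose without WT replicates 3 or 4 or PIM1+/- replicate 4, 3 without replicate 1 of either genotype, 4 without WT replicate 2 or PIM1+/- replicate 3, and 5 without PIM1+/- replicate 2. The total was 2 (Pdia3 and Pdia6) without PIM1+/- replicates 1 and 2 together, where 450 of all genes rose. With mitochondrial transcripts and their nuclear copies taken out of the scaling, the median of all genes moved from -0.01 to -0.11, 7 of the 34 rose and 1 (Ern1) fell, and over all genes the split of 1139 higher and 1090 lower became 736 and 2233. Under that scaling the direction of Syvn1, Herpud1, Derl1 and Atf6, none of which passed the test, changed to lower. Pdia3 and Pdia6 passed the threshold in all 16 alternatives run, and Asns and Sec61a1 in all but the one without PIM1+/- replicates 1 and 2.

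**Figure D2:**
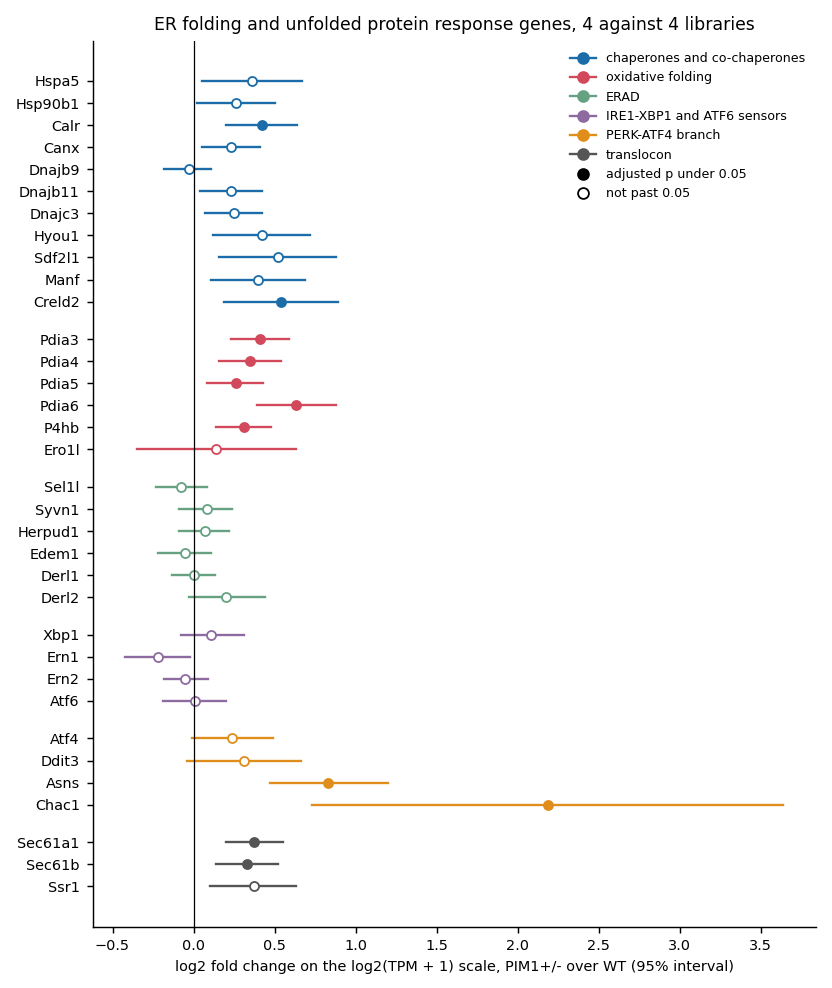
Log2 fold change of each tested gene, PIM1+/- against WT, grouped by role. The x axis is the difference in mean log2(TPM + 1), bars are 95% confidence intervals of the limma fit over 4 libraries a genotype, and filled points passed the threshold. Filled points lie in the chaperone, oxidative folding, PERK-ATF4 and translocon groups and none in the ERAD and sensor groups.

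In oxidative folding, where disulfide bonds are formed and rearranged, 5 of 6 genes rose, against 8.93% of all tested genes. The 5 were separated between genotypes in every library, and 11.9% of all tested genes were higher in this way. The summed level of the 5 with Ero1l was 796 ± 51.0 TPM (SD, n = 4) in WT and 1043 ± 114 TPM (SD, n = 4) in PIM1+/-. Pdia6, a protein disulfide isomerase that also binds the luminal side of the sensors, measured 108.98, 119.62, 105.11 and 94.86 TPM in WT and 197.97, 149.75, 144.28 and 177.41 TPM in PIM1+/-. PIM1+/- replicates 1 and 4 were the highest and WT replicate 4 the lowest, with no overlap. Its mean rose from 107 ± 10.2 to 167 ± 25.0 TPM (SD, n = 4 each), a log2 fold change of 0.63 ± 0.11 (SE) with a limma adjusted p of 0.00529. Its promoter holds the ERSE printed above.

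Pdia3, the disulfide isomerase that works on glycoproteins held by calnexin and calreticulin, measured 258.42, 280.04, 261.55 and 241.82 TPM in WT. The PIM1+/- libraries gave 391.75, 315.70, 314.99 and 363.84 TPM, and again replicates 1 and 4 stood above the other two. The difference on the log2 scale was 0.41 ± 0.08 (SE), with a limma adjusted p of 0.00969. Pdia3 and Calr also belong to the complex that loads peptides on MHC class I molecules. P4hb, the most abundant disulfide isomerase among the 36 genes, is also a subunit of prolyl 4-hydroxylase. It stood at 264.11 to 311.80 TPM in WT and 317.80 to 386.82 TPM in PIM1+/- (log2 fold change 0.31, limma adjusted p = 0.0243). Pdia4, which has an additional thioredoxin-like domain, stood at 60.08 to 71.19 and 77.73 to 96.99 TPM (0.35, limma adjusted p = 0.0227). Pdia5, a less studied isomerase with a known part in ATF6 activation, stood at 51.53 to 59.01 and 59.11 to 73.51 TPM, a gap of less than 1 TPM between the groups (0.26, limma adjusted p = 0.0476). The calls of Pdia4, P4hb and Pdia5 were lost in 5, 9 and 13 of the 16 alternatives.

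Ero1l encodes the oxidase that recharges the disulfide isomerases, and it did not follow them. Its WT values were 21.68, 23.29, 21.28 and 18.46 TPM, and its PIM1+/- values were 40.12, 19.68, 19.73 and 18.91 TPM. PIM1+/- replicate 1 alone was high and the other three lay within the WT range. The log2 fold change of 0.14 ± 0.22 (SE, limma adjusted p = 0.701) became -0.11 without that library.

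**Figure D3:**
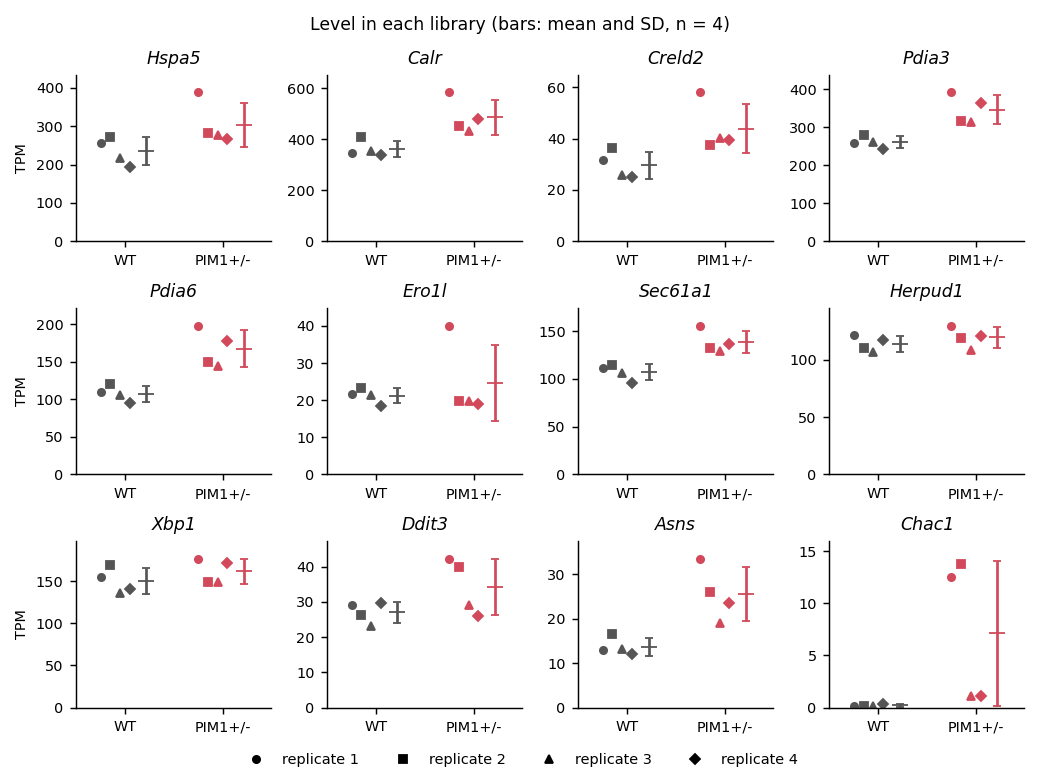
TPM of selected genes in each library, WT and PIM1+/- side by side. Each panel is a gene with its own y axis in TPM, each point a library (marker shape: replicate number), and the bars give mean and SD of 4. Pdia6, Pdia3, Calr and Asns have no overlap between genotypes, while for Ero1l a single PIM1+/- library at 40.12 TPM lies above the rest.

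Among the chaperones 2 of 11 rose (18.2%), 10 of 11 had a log2 fold change above 0 with a median of 0.36, and in 6 of 11 the genotypes did not overlap. Over all tested genes 8.93% rose, and 11.9% were higher without overlap. All 11 chaperones were at their PIM1+/- maximum in replicate 1, the library in which the goblet cell marker sum was also highest (38122 TPM). How many of all tested genes had their maximum there was not counted. Calr, the lectin chaperone calreticulin and the most abundant of the 36 genes, measured 348.00, 408.59, 353.50 and 337.60 TPM in WT and 584.24, 450.53, 431.67 and 478.85 TPM in PIM1+/-. WT replicate 2 came closest to the PIM1+/- libraries and PIM1+/- replicate 1 was the highest, without overlap. The log2 fold change was 0.42 ± 0.10 (SE, limma adjusted p = 0.0199), and 0.33 without PIM1+/- replicate 1. The call was kept in 10 of the 16 alternatives.

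Creld2, a secreted ER stress protein with disulfide isomerase activity, measured 31.66, 36.22, 25.75 and 25.09 TPM in WT and 57.98, 37.60, 40.15 and 39.36 TPM in PIM1+/-. The groups did not overlap, but PIM1+/- replicate 1 stood far above the other three. This gave a log2 fold change of 0.54 ± 0.16 (SE, limma adjusted p = 0.0440), and without PIM1+/- replicate 1 the value was 0.40 with an adjusted p of 0.0739. That call was lost in 12 of the 16 alternatives.

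Hspa5 encodes BiP, the Hsp70 chaperone that binds the sensors and is the usual readout of ER stress. It measured 257.05, 272.21, 217.37 and 194.76 TPM in WT and 388.12, 281.28, 277.68 and 267.59 TPM in PIM1+/-. PIM1+/- replicate 1 was far above the rest, and PIM1+/- replicate 4 lay below WT replicate 2. The log2 fold change of 0.36 ± 0.14 (SE) did not pass (limma adjusted p = 0.105), and it was 0.24 without PIM1+/- replicate 1. Hsp90b1, the ER Hsp90, was also highest in PIM1+/- replicate 1, but without overlap, at 178.63 to 218.05 TPM in WT and 306.42, 224.84, 234.43 and 230.71 TPM in PIM1+/- (0.26, limma adjusted p = 0.128).

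The remaining chaperone genes did not pass either. Sdf2l1, a partner of the BiP system, had a log2 fold change of 0.52 ± 0.16 (SE, limma adjusted p = 0.0547), and Hyou1, the nucleotide exchange factor of BiP, 0.42 ± 0.13 (SE, limma adjusted p = 0.0575). Both had all 4 PIM1+/- libraries above WT. Manf, a secreted ER stress factor, had 0.40 (limma adjusted p = 0.0628), with WT replicate 2 at 198.21 TPM inside the PIM1+/- range. Dnajc3, a BiP co-chaperone that also inhibits PERK, had 0.25 (limma adjusted p = 0.0539). Canx, the membrane lectin calnexin, and Dnajb11, a BiP co-chaperone, both had 0.23 (limma adjusted p = 0.0781 and 0.0878). Dnajb9, the co-chaperone that represses IRE1 and is a classic XBP1 target, stood apart from these at 29.03 to 31.25 TPM in WT and 26.94 to 32.39 TPM in PIM1+/-. Its log2 fold change was -0.03 ± 0.07 (SE, limma adjusted p = 0.759).

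**Figure D4:**
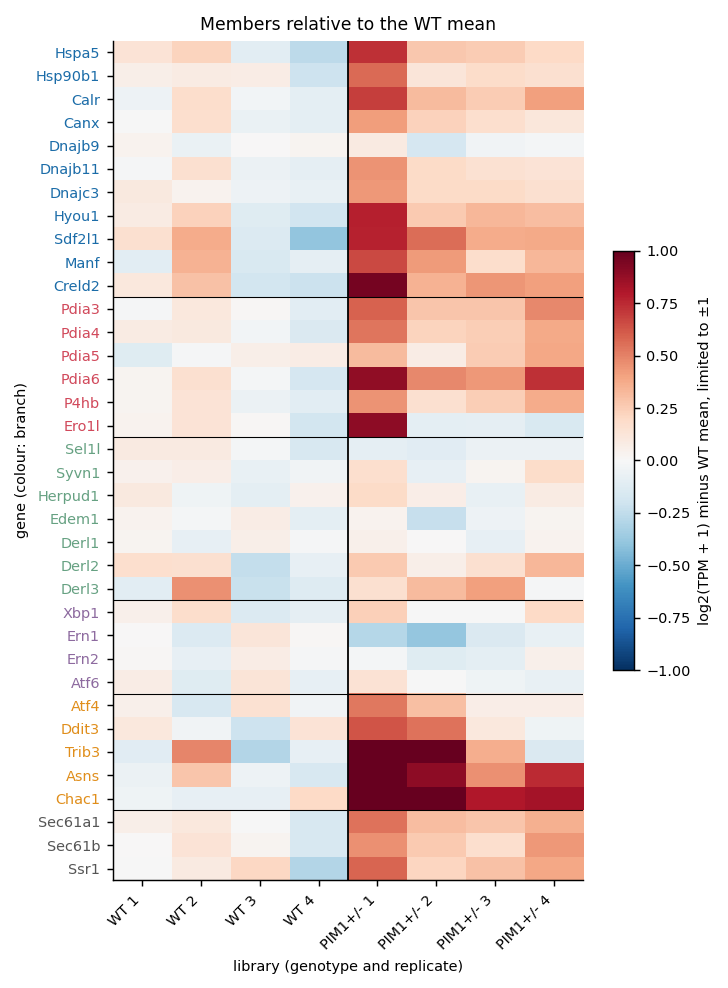
Level of each gene in each library relative to its mean over the WT libraries, on the log2(TPM + 1) scale. Rows are genes grouped by role, columns are the 8 libraries, and colour gives the log2 difference, limited to 1 in either direction. PIM1+/- replicate 1 is the darkest column for the chaperones, and rows of the ERAD and sensor groups are mostly pale, with Derl3 and Ern1 the least so.

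At the entry to the ER 2 of 3 genes rose, and all 3 were separated between genotypes in every library. Over all tested genes 8.93% rose, and 11.9% were higher without overlap. Sec61a1, the pore subunit of the translocon, measured 110.93, 115.01, 106.13 and 95.53 TPM in WT and 155.92, 132.23, 129.71 and 137.06 TPM in PIM1+/-. Every PIM1+/- library lay above every WT library, with replicate 1 the highest. On the log2 scale the difference was 0.37 ± 0.08 (SE, limma adjusted p = 0.0115). Sec61b, a small subunit of the same channel, stood at 271.08 to 333.55 and 340.41 to 417.40 TPM (0.33, limma adjusted p = 0.0269), a call lost in 9 of the 16 alternatives. Ssr1, the alpha subunit of the translocon-associated TRAP complex, was at 20.10 to 28.87 and 29.02 to 37.68 TPM, and its log2 fold change of 0.37 ± 0.12 (SE) did not pass (limma adjusted p = 0.0593).

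No ERAD gene passed the test, and of the 6 tested 0 reached an unadjusted p under 0.05 in limma. The summed level of the 7 genes was 266 ± 10.6 TPM in WT and 274 ± 15.3 TPM in PIM1+/- (SD, n = 4 each), with a median log2 fold change of 0.03. Herpud1, the ubiquitin-like scaffold of the degradation complex and the gene with matches to 3 elements, measured 121.68, 110.43, 106.29 and 117.25 TPM in WT and 129.74, 119.06, 108.11 and 120.50 TPM in PIM1+/-. The groups overlapped over most of their range (0.07, limma adjusted p = 0.545). Syvn1, the ubiquitin ligase Hrd1, whose promoter holds an ERSE, was at 26.15 to 28.85 and 25.96 to 31.49 TPM (0.08, limma adjusted p = 0.528). Its adaptor Sel1l was at 24.59 to 29.43 and 25.51 to 26.50 TPM (-0.08, limma adjusted p = 0.471), and Edem1, which hands misfolded glycoproteins to ERAD, at 33.16 to 37.51 and 30.09 to 36.47 TPM (-0.05, limma adjusted p = 0.656).

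The derlins are membrane proteins of the ERAD channel. Derl1 had a log2 fold change of 0.00 with a 95% confidence interval of -0.13 to 0.13 in the limma fit. Derl2 had 0.20 ± 0.11 (SE, limma adjusted p = 0.219). Derl3 lay under 1 TPM in all 8 libraries, at 0.23 to 0.96 TPM in WT and 0.42 to 0.90 TPM in PIM1+/-, and was not tested in the fit (two-sided exact permutation p = 0.286).

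The sensors and their factors did not pass either. Xbp1, whose mRNA is spliced by IRE1, measured 154.57, 169.07, 135.36 and 140.07 TPM in WT and 176.56, 149.06, 149.05 and 171.80 TPM in PIM1+/-, and the groups overlapped. Its log2 fold change was 0.11 with a 95% confidence interval of -0.08 to 0.31 (limma adjusted p = 0.418). These are levels per gene, so spliced and unspliced Xbp1 were not separated. Ern1, which encodes the ubiquitous IRE1-alpha, measured 14.23, 12.85, 15.52 and 14.29 TPM in WT and 11.49, 10.64, 12.76 and 13.42 TPM in PIM1+/-. Its PIM1+/- values were mostly below WT, with replicate 4 inside the WT range (-0.22 ± 0.09, SE, limma adjusted p = 0.125). With mitochondrial transcripts out of the scaling it passed as lower (-0.33, limma adjusted p = 0.0347), as did 16.8% of all tested genes. Ern2, the IRE1-beta of mucus-secreting epithelium, stood at 49.07 to 54.85 and 47.71 to 53.85 TPM (-0.05, limma adjusted p = 0.626). The goblet cell marker sum did not overlap between genotypes, but its 15 genes differed among themselves. Their log2 fold changes ran from -0.51 to 3.91, with a median of 0.27. Atf6 was at 10.14 to 12.31 and 10.56 to 12.45 TPM (0.01, limma adjusted p = 0.968).

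In the PERK-ATF4 arm Asns rose. That is 1 of the 3 tested genes when Chac1, which had to differ, is set aside (2 of 4 with it). Of all tested genes 8.93% rose. Asns, the asparagine synthetase and a standard ATF4 target, measured 12.97, 16.63, 13.09 and 12.04 TPM in WT and 33.48, 26.05, 18.97 and 23.44 TPM in PIM1+/-. All PIM1+/- libraries lay above WT, with replicate 1 the highest and replicate 3 the lowest. The mean rose from 13.7 ± 2.02 to 25.5 ± 6.08 TPM (SD, n = 4 each), a log2 fold change of 0.83 ± 0.16 (SE) with a limma adjusted p of 0.00874. Without PIM1+/- replicates 1 and 2 it was 0.60 with an adjusted p of 0.0572.

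Chac1, which degrades glutathione and is induced by ATF4, split the PIM1+/- libraries. It measured 0.17, 0.14, 0.14 and 0.38 TPM in WT and 12.48, 13.82, 1.1 and 1.14 TPM in PIM1+/-. PIM1+/- replicates 1 and 2 were far above replicates 3 and 4, which were themselves above all WT libraries. The log2 fold change was 2.19 ± 0.65 (SE, limma adjusted p = 0.0465), and 0.82 (limma adjusted p = 0.0590) without PIM1+/- replicates 1 and 2. Trib3, a pseudokinase that ATF4 and CHOP induce and that holds back ATF4, showed the same libraries high at values mostly under 1 TPM: 0.13, 0.72, 0 and 0.16 TPM in WT and 1.99, 2.92, 0.58 and 0.11 TPM in PIM1+/-. It did not pass the filter (two-sided exact permutation p = 0.229).

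Atf4 itself measured 178.37, 153.54, 191.06 and 167.51 TPM in WT and 248.16, 212.72, 180.16 and 180.40 TPM in PIM1+/-. Its PIM1+/- replicates 1 and 2 were above all WT libraries and replicates 3 and 4 within their range (0.24 ± 0.11, SE, limma adjusted p = 0.165). ATF4 is controlled mainly by translation, which RNA levels do not measure. Ddit3, which encodes the pro-apoptotic factor CHOP, measured 29.04, 26.21, 23.25 and 29.73 TPM in WT and 42.24, 39.78, 29.12 and 26.05 TPM in PIM1+/-, again with replicates 1 and 2 high (0.31 ± 0.15, SE, limma adjusted p = 0.201).

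Within this list the libraries thus differed in which genes they carried high. Of the 35 genes detected in every library, 27 were at their PIM1+/- maximum in replicate 1, and 21 were at their WT maximum in replicate 2. The share over all tested genes was not counted, so these maxima are not shown to be particular to the list. Chac1 and Trib3 were highest in PIM1+/- replicate 2. Of the 8 tested genes with an ERSE, 3 rose (Calr, Creld2 and Pdia6), with a median log2 fold change of 0.31. Of the 12 tested genes with an ERSE-like match, which include those with an ERSE, 5 rose, with a median of 0.30. The ERSE-like element was added after the data were seen. Of the 3 with an AARE core, Asns rose and Herpud1 did not. Chac1 had to differ, so no count or median is given for that set. Of the 13 tested genes with none of the elements, 3 rose (Pdia5, P4hb and Sec61b), with a median of 0.24. Over the 34 genes 32.4% rose (10 of 33 genes without Chac1), and over all tested genes 8.93%. A difference between these sets was not tested.

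Other genes of the same pathways, 111 on 5 lists, were examined alongside. Of 106 tested, 27 rose (25.5%) and 3 fell (2.83%), with a median log2 fold change of 0.14, against the 8.93% and 8.54% of all tested genes. In translocation and glycosylation 9 of 23 rose and 0 fell, led by Rpn2 (0.45, limma adjusted p = 0.00306) and Ostc (0.39, limma adjusted p = 0.00587), parts of the oligosaccharyltransferase, and by the TRAP subunit Ssr2 (0.46, limma adjusted p = 0.00899). Rpn2 went from 163.83 to 185.84 TPM in WT to 218.68 to 257.37 TPM in PIM1+/-. The 9 became 4 without WT replicate 1 or WT replicate 4, 5 without WT replicate 3, PIM1+/- replicate 1 or PIM1+/- replicate 3, and 3 without PIM1+/- replicates 1 and 2 together.

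Among the other folding genes 5 of 28 rose (17.9%, against 8.93% of all tested genes) and 0 fell. They include the prolyl isomerases Ppib (0.29, limma adjusted p = 0.0116) and Fkbp11 (0.89, limma adjusted p = 0.0163). They also include Agr2, the disulfide isomerase needed for mucin folding, which is on the goblet cell list too. Agr2 measured 2140.22, 2476.78, 2136.73 and 2069.80 TPM in WT and 3752.88, 2545.53, 2824.48 and 3448.09 TPM in PIM1+/- (0.50, limma adjusted p = 0.0220). PIM1+/- replicates 1 and 4 were high, and replicate 2 lay just above WT replicate 2. Of this list 2 rose without WT replicate 1, WT replicate 3, WT replicate 4 or PIM1+/- replicate 4, 3 without PIM1+/- replicate 1, and 1 without a filter or without PIM1+/- replicates 1 and 2 together.

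Of the PERK-ATF4 and amino acid response genes 9 of 24 rose (37.5%) and 1 fell (4.17%), against 8.93% and 8.54% of all tested genes. Phgdh, the entry enzyme of serine synthesis, rose (0.90, limma adjusted p = 0.0112), as did the tRNA synthetase genes Wars (0.42, limma adjusted p = 0.0144), which interferon-gamma also induces, and Nars (0.50, limma adjusted p = 0.0148). The stress hormone gene Gdf15 fell by 0.63 on the log2 scale (limma adjusted p = 0.0142), from 10.25 to 15.92 TPM in WT to 6.85 to 9.57 TPM in PIM1+/-. Ppp1r15a, the regulatory subunit that reverses the PERK block of translation, had -0.27 (limma adjusted p = 0.222), and the stress factor gene Atf3 0.33 (limma adjusted p = 0.0867). On this list 4 rose without WT replicate 1 or WT replicate 3, 5 without WT replicate 4 and 3 without a filter, and 0 rose without PIM1+/- replicates 1 and 2 together.

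In the other ERAD genes 3 of 18 rose (16.7%) and 1 fell (5.56%), against 8.93% and 8.54% of all tested genes. Aup1 (0.31, limma adjusted p = 0.0173), Vcp (0.23, limma adjusted p = 0.0326), the ATPase that extracts ERAD substrates, and Selenos (0.16, limma adjusted p = 0.0437), an anchor for it, rose, and Fam8a1, a Hrd1 cofactor, fell (-0.36, limma adjusted p = 0.0142). These calls were unstable: 0 rose without WT replicate 1, 1 without WT replicates 2, 3 or 4 or PIM1+/- replicates 3 or 4, and 5 without PIM1+/- replicate 2. With mitochondrial transcripts out of the scaling 0 rose and 3 fell (16.7%), near the 16.8% of all tested genes that fell there. Among 13 other sensors and stress factors 1 rose, Creb3l3 (1.05, limma adjusted p = 0.0135), an ER-anchored transcription factor of liver and gut at 0.92 to 2.12 TPM in WT and 2.46 to 5.97 TPM in PIM1+/-. There Bfar, an ER-membrane ubiquitin ligase, fell (-0.37, limma adjusted p = 0.0112). On that list 7.69% rose and 7.69% fell, near the shares of all tested genes. Eif2ak3, which encodes PERK, did not pass (0.14, limma adjusted p = 0.414), nor did the ATF6 relative Atf6b (0.09, limma adjusted p = 0.364) or Creb3l1, a secretory-cell factor (-0.20, limma adjusted p = 0.122). Without mitochondrial transcripts in the scaling, 15 of the other pathway genes rose (14.2%) and 13 fell (12.3%), against 5.55% and 16.8% of all tested genes. Under that scaling the direction of Atf6b changed to lower.

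**Figure D5:**
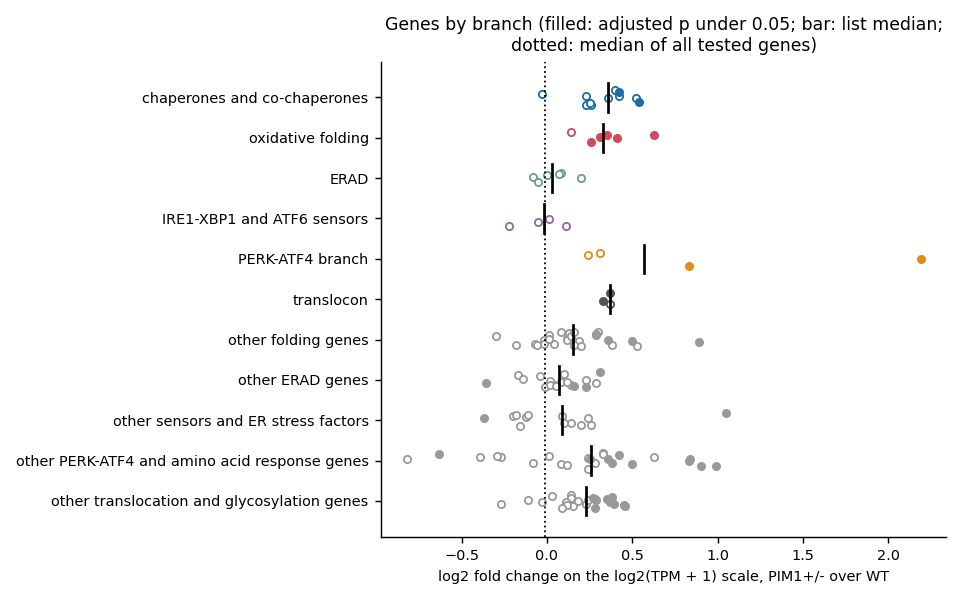
Log2 fold change of every tested gene on each list, PIM1+/- against WT, for the 36 genes by role and for the other pathway genes. The x axis is the difference in mean log2(TPM + 1), each point is a gene (filled past the threshold), each vertical bar a list median and the dotted line the median of all tested genes. The medians of the ERAD and sensor groups (0.03 and -0.02) lie near that of all tested genes at -0.01, and those of the chaperone, oxidative folding and translocon groups lie between 0.33 and 0.37.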

How the data were processed

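The authors deposited TPM per gene for 8 libraries in 1 table, quantified with RSEM per the series' design text. HISAT2, StringTie and edgeR stand in the submitters' processing notes too (no version or role), with GRCm38.p6 as the build. Annotation release, strand setting and read depth were not given in the sources used here. Of the per-sample columns 0 were left out.

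Log2(TPM + 1) was compared by genotype with limma 3.58.1 in R 4.3.3 (empirical Bayes with a trend, two-sided, Benjamini-Hochberg over all 12760 genes that reached 1 TPM in 4 or more libraries, threshold 0.05, 9.27 degrees of freedom), and the code was tested on simulated data. Single genes outside the fit got an exact permutation test over 70 arrangements. Ddit3 had 2 rows, and the row listed at 0 throughout was not used. Members and lists were chosen with earlier results of these data known. All members are named. Of the other pathway genes Agr2, Eif2ak3, Ppp1r15a, Atf3, Atf6b and Creb3l1 are named, and up to 3 a list and direction with the smallest p past the threshold. Of the marker lists the 3 most abundant goblet genes are named, as the rule allows, and Lum was chosen after its values were seen. Replicate numbers were not found to pair libraries. Nuclear copies of mitochondrial transcripts (16) were found with BLAST+ 2.17.0 at 90% identity over 80% of their length. Alternatives were a fit without trend, upper quartile scaling, scaling without mitochondrial transcripts, no filter on low values, a minimum mean of 5 TPM, a pseudocount of 0.1 in place of 1, a replicate block and leaving out each library. The one without PIM1+/- replicates 1 and 2 was chosen after seeing the data. Promoters are RefSeq's, on GRCm38.p6, and gene spans GENCODE M21's.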

Additional observations from a re-analysis of the deposited data

Results flagged for a closer look

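In 13 of 116 groups of 4 libraries examined, the highest or lowest library stood far from the rest of its group by Dixon's ratio at the 95% level. Chance reaches this in about 1 in 20 independent groups. These groups are genes in the same 8 libraries, so they are not independent. The share flagged over all tested genes was not counted, so the flags are not shown to be particular to the list. PIM1+/- replicate 1 was the high library for 6 genes that did not pass the test: Hspa5 at 388.12 TPM, Hsp90b1 at 306.42 TPM, Dnajb11 at 114.45 TPM, Dnajc3 at 37.9 TPM, Hyou1 at 55.05 TPM and Ero1l at 40.12 TPM. Creld2, which rose in PIM1+/-, was also far above its group there at 57.98 TPM. Goblet cell marker sums were highest in the same library. Their part in these values was not tested. In WT, replicate 2 was high for Manf (198.21 TPM), Derl3 (0.96 TPM) and Wars (75.74 TPM), replicate 1 stood apart for Atf6b (27.21 TPM), and replicate 4 was low for Hsp90b1 (178.63 TPM) and high for Chac1 (0.38 TPM).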

How the results depend on the processing

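The cause of the changes given here was not tested. Of the 34 tested genes, 11 rose in the reported fit (10 of 33 without Chac1). The number was 8 without the trend, 9 with upper quartile scaling, 7 without mitochondrial transcripts (and 1 fell), 4 without a filter, 7 with the replicate block, 2 without PIM1+/- replicates 1 and 2, and 4 to 13 over 8 single libraries left out. The share of all genes that rose was also lower in such fits. Without a filter it was 2.89%, against 11.1% of the members. With the block it was 5.96% and without PIM1+/- replicates 1 and 2 it was 3.38%. By group, chaperones that rose numbered 1 without the trend, 1 with upper quartile scaling, 1 without mitochondrial transcripts, 0 without a filter, 0 without PIM1+/- replicates 1 and 2, and 0 to 6 over single libraries left out. Oxidative folding genes numbered 3, 2, 3 and 2 without mitochondrial transcripts, without a filter, with the replicate block and without the pair (2 to 5 over single libraries). The sensors gained 1 lower gene without mitochondrial transcripts. PERK-ATF4 genes numbered 1 without the trend, without a filter, at a mean of at least 5 TPM and with the block, 0 without the pair, and 1 to 2 over single libraries. Translocon genes numbered 1 without mitochondrial transcripts, without a filter and with the block, 0 without the pair, and 1 to 2 over single libraries. Other pathway genes rose and fell as 15 and 13 without mitochondrial transcripts, with 7 lower under upper quartile scaling, 10 higher without a filter, 16 higher with the block (1 other folding gene and 1 other ERAD gene among them), 5 higher and 1 lower without the pair, and 11 to 25 higher and 3 to 5 lower over single libraries. Over all genes 736 rose and 2233 fell without mitochondrial transcripts, 666 fell without a filter, 689 fell with the block, 450 rose and 363 fell without the pair, and 741 to 1010 rose and 608 to 1058 fell over single libraries.

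Genes that did not pass and changed sign were Ero1l (-0.12 without the pair, -0.11 to 0.24 over single libraries), Dnajb9 (-0.08 to 0.01), Edem1 (-0.09 to 0.00), Derl1 (-0.05 with upper quartile scaling, -0.11 without mitochondrial transcripts, -0.03 without the pair, -0.03 to 0.03 over single libraries), Atf6 (-0.04, -0.09 and -0.06 in the same 3 settings, -0.04 to 0.05), and, without mitochondrial transcripts, Syvn1 (-0.03), Herpud1 (-0.04) and Atf6b (-0.02).

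Same-numbered libraries had correlations of deviations between -0.136 and 0.0320 and 0 of 4 WT libraries correlated best with their own number, so the numbers do not pair them. TPM keeps no read depth, so no counting error can be given for genes near 0 such as Trib3, Derl3 and Chac1.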
